A study of Arabidopsis thaliana with 33 samples.

Results

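Leaf RNA taken at midday was compared with leaf RNA taken at midnight in Arabidopsis thaliana Col-0 plants grown at ambient CO2 (370 ppm) with ample nitrogen (6 mM NH4NO3). The comparison used 9 of the 33 arrays of the series, 4 titled as midday and 5 titled as midnight. All 12772 probe sets that are not Affymetrix controls were tested. The youngest fully expanded leaves were taken 35 days after germination from soil-grown plants kept at 250 µmol photons per square metre and second for 10 hours, with 14 hours of darkness, at 21 °C by day and 18 °C by night. Midday and midnight therefore differ in light and in chamber temperature as well as in clock phase. The plants are the wild-type accession with no transgene, and the 3 other growth conditions of the series (limiting nitrogen at 0.25 mM NH4NO3, elevated CO2 at 750 ppm, and both) share no array with this comparison. What makes a replicate (a plant, a pool or a chamber) is not stated in the labels. The p-values therefore measure only the spread between these samples, which may be technical.

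In leaves, light drives carbon fixation in chloroplasts during the day, and part of the fixed carbon is stored as starch. At night starch is broken down to sugars, which are exported or respired through the tricarboxylic acid (TCA) cycle and the mitochondrial electron transport chain. Many transcripts of these pathways cycle over the day under the joint control of light, sugars and the circadian clock, so a midday and a midnight sample differ widely.

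Expression is given on a log2 scale on which each array's median is 0, so a value of 1 is double the array's own median level, and a shift shared by most transcripts would not show. All differences below are midday minus midnight on this log2 scale, with the standard error (SE) of limma, a linear model with a moderated estimate of spread that was fitted to all 33 arrays. A probe set was called higher or lower at midday when its Benjamini-Hochberg adjusted p over the 12772 probe sets was under 0.05. Of the tested probe sets, 6898 name 1 gene in the annotation used, so many well-known leaf genes could not be named. Of 6 leaf markers listed, RCA (Rubisco activase) was the only one named, and it stood at 6.43 ± 0.19 at midday (SD, n = 4) and 6.04 ± 0.26 at midnight (SD, n = 5). The highest value on these arrays was 7.44. No listed marker of roots, of phloem and xylem or of flowers was named, so those tissues were not checked.

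One array stood apart. The midnight array of replicate 4 correlated with the mean of the other midnight arrays at r = 0.908, against 0.960 to 0.991 for the other 8 arrays with their own groups. Its plant control probe sets for the 3' end exceeded those for the 5' end by 4.41, a measure that rises as RNA or its labelled copy is less complete, against 1.47 to 1.94 on the 4 midday arrays and 1.71 to 2.35 on the other 4 midnight arrays. On the 24 arrays of the other conditions the same measure lay between 1.46 and 2.32. The mean of its hybridisation spike-ins was 4.22, against 2.78 to 3.19 at midday and 2.12 to 2.84 on the other midnight arrays. Its poly(A) spike-ins, which carry no plant RNA, had the highest 3' mean (1.27) and the lowest 5' mean (-2.68) of the 9 arrays. Whether the leaf RNA or its labelling gave the wide gap was not tested. Results that rest on this array are given with and without it.

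**Figure D1:**
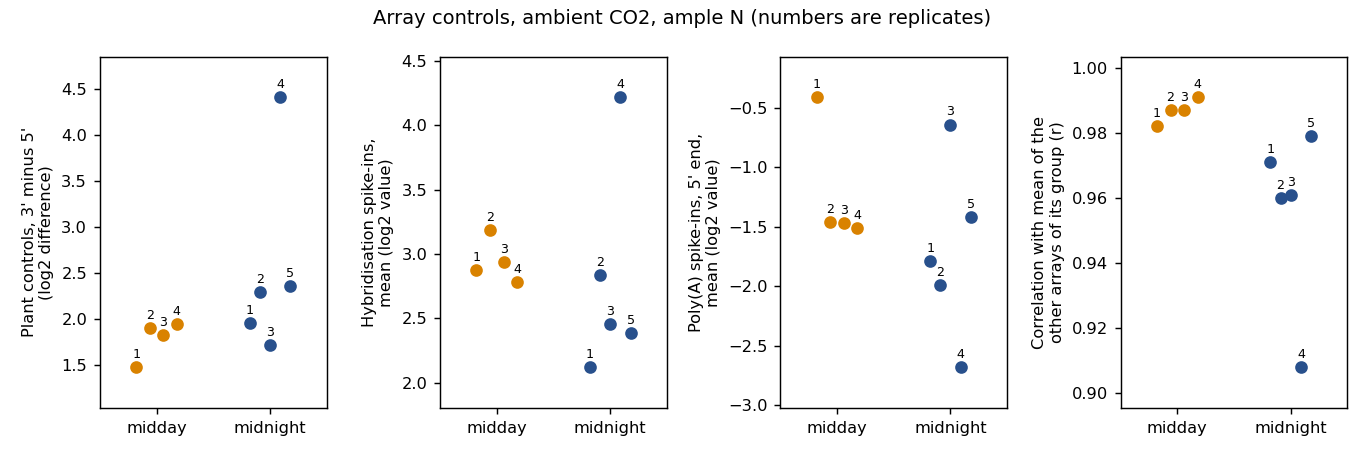
Control quantities on the 4 midday arrays (left in each panel) and the 5 midnight arrays (right), each point 1 array with its replicate number: log2 difference between 3' and 5' plant control probe sets, mean log2 value of the hybridisation spike-ins, mean log2 value of the 5' poly(A) spike-ins, and correlation with the mean of the other arrays of its group. The midnight array of replicate 4 is the highest or the lowest of the 9 arrays in all 4 panels, at 4.41, 4.22, -2.68 and 0.908.

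Large parts of the leaf transcriptome differed between the times of day. Of the 12772 probe sets, 5185 were called (40.6%), 2547 higher (19.9%) and 2638 lower (20.7%) at midday. Without the midnight array of replicate 4 there were 5414 (42.4%), 2672 higher and 2742 lower, and 4622 were called the same way in both fits, 89.1% of those called with all arrays and 85.4% of those called without it. In 3654 probe sets (28.6%) the 4 midday values did not overlap the 5 midnight values. The median size of the difference was 0.37 over all tested probe sets and 0.773 over those called. A log2 difference of at least 1 (a doubling or a halving) was reached by 881 of those called higher and 756 of those called lower. The upper tail was longer: 195 probe sets called higher and 125 called lower passed a log2 size of 2, and 52 and 18 passed 3. In bulk leaf samples, fewer cells of a type and less RNA per cell cannot be told apart.

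The 37 Affymetrix spike-in probe sets, which carry no plant RNA, give a yardstick for differences between the 2 sets of arrays that do not come from plant transcripts. On values centred on each array's median, a shift in the plant RNA would also move them, and that was not tested. Their median size was 0.19 and the largest was 0.83, for PheX-3, a poly(A) spike-in. PheX-3 stood at -0.64, -0.14, -0.54 and -0.51 at midday, against 0.19, 0.43, 0.19, 0.73 and 0.30 at midnight, so the groups did not overlap. The largest difference the other way was 0.76, also for a poly(A) spike-in. In 4 of the 37 the groups did not overlap, against 28.6% of the tested probe sets. All 4 were 3' poly(A) probe sets that were lower at midday (by 0.42 to 0.83), namely DapX-3, PheX-3, ThrX-3 and r2-Bs-thr-3. Other 3' probe sets of the dap and phe spike-ins overlapped, r2-Bs-dap-3 at 0.07 and r2-Bs-phe-3 at -0.19. Those of the lys spike-in overlapped too, LysX-3 at -0.18 and r2-Bs-lys-3 at 0.07. Each of the 4 without overlap had the smallest p the design allows (two-sided exact permutation test, p = 0.0159). The smallest adjusted p over the 37 spike-ins was 0.147. Without the midnight array of replicate 4 the median size was 0.38, the largest 0.74, and 9 had an exact p under 0.05, with 0.0286 the smallest possible. With all arrays 12 of the 14 hybridisation spike-ins were higher at midday (-0.04 to 0.27 over the 14). Without the midnight array of replicate 4 all 14 were higher, by 0.33 to 0.65, with a median size of 0.5. The cause of this shared shift was not tested.

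Set against that yardstick, 1225 probe sets called higher and 1108 called lower lay beyond the largest spike-in difference, 45.0% of all calls (1477 and 1377, 52.7%, without the midnight array of replicate 4). The remaining calls were no larger than the largest difference seen in spike-ins, and a part of handling in them was not tested. The labels name no processing batch. The 17 plant control probe sets (for actin, GAPDH, ubiquitin and 25S ribosomal RNA) were not part of the test. All had a higher mean at midday, by 0.29 to 1.88, and by 0.34 to 1.19 without the midnight array of replicate 4. In 14 of the 17 the groups did not overlap, against 28.6% of the tested probe sets (14.1% higher at midday). Several of the 17 target the same transcript, so they are not independent of each other.

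**Figure D2:**
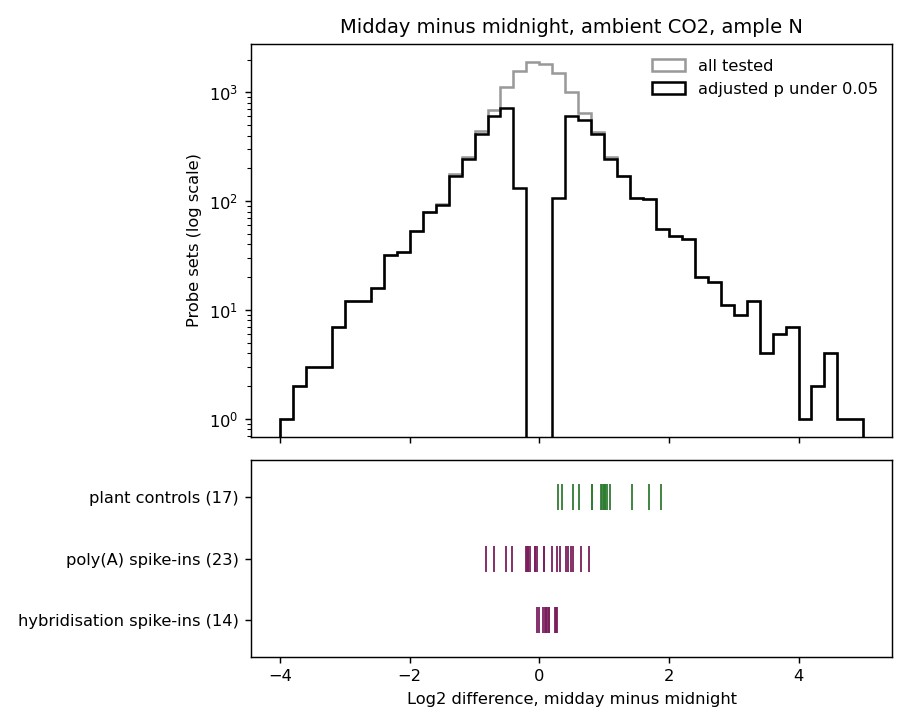
Distribution of the log2 difference, midday minus midnight (horizontal axis, both panels). The upper panel counts probe sets per bin on a log axis, for all 12772 tested (grey) and the 5185 called (black); each tick in the lower panel is 1 control probe set. Spike-ins lie between -0.83 and 0.76, the plant controls all above 0, and the tested probe sets reach well beyond both.

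The gene with the largest difference was AT5G35970, which was 30.1-fold higher at midday. It stood at 4.34, 4.43, 4.15 and 4.56 on the midday arrays, against -0.97, -0.26, -0.18, -0.29 and -1.02 on the midnight arrays (log2 difference 4.91, SE 0.19, limma adjusted p = 3.99e-19). The annotation gives AT5G35970 no symbol. Among single-gene probe sets without overlap between the groups, the 12 largest positive differences were 10.2-fold to 30.1-fold. In all 12 genes every midday array lay above its own median, and in 10 every midnight array lay below it. The smallest gap between the lowest midday and the highest midnight value was 2.36.

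AT1G55960, also without a symbol, was 16-fold higher, at 2.98, 3.17, 2.89 and 3.16 at midday, against -0.69, -0.52, -1.26, -0.99 and -1.3 at midnight. AT5G15950 followed with 2.91, 3.25, 3.19 and 3.17 at midday, against -0.72, -1.37, -0.30, -0.98 and -0.66 at midnight (log2 difference 3.94, SE 0.16). In both genes the arrays of a time of day lay close together and far from those of the other time. AT2G23840 had a difference of 4.2 (SE 0.29) that included a very low midnight array: it stood at 1.59, 1.52, 1.46 and 1.52 at midday, against -2.19, -2.41, -1.83, -4.42 and -2.56 at midnight. Without that array, replicate 4, the difference was 3.77.

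Of the 12, 2 carry a symbol. CYP71B26, a cytochrome P450, stood at 2.3, 2.56, 2.56 and 2.35 at midday, against -1.55, -1.38, -2.19, -0.62 and -1.42 at midnight (14.6-fold, limma adjusted p = 1.18e-15). IAGLU, a glucosyltransferase of the auxin indole-3-acetic acid, stood at 1.31, 1.25, 0.80 and 1.08 at midday, against -2.38, -1.82, -2.27, -1.89 and -2.98 at midnight (10.4-fold, limma adjusted p = 4.69e-12). Both were well above the array median by day and well below it at night. The other 6 were AT5G57345 (3.84), AT3G15310 (3.76), AT5G43150 (3.75), AT4G12980 (3.75), AT3G01060 (3.36) and AT2G41250 (3.34), and the next gene outside the 12 was AT3G57020 at 3.24.

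Differences in the other direction were smaller, 7.01-fold to 11.8-fold for the 12 largest. AT3G59350 stood at -2.17, -1.92, -1.95 and -2.03 at midday, against 1.25, 2.2, 0.99, 1.23 and 2.03 at midnight (log2 difference -3.56, SE 0.23, limma adjusted p = 1.72e-13). In all 12 genes every midnight array lay above its own median, and in 8 every midday array lay below it. The smallest gap between the highest midday and the lowest midnight value was 1.74.

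TBL45, of a plant family linked to acetylation of cell wall polysaccharides, stood at 0.49, -0.65, 0.27 and -1.04 at midday, against 2.65, 2.87, 2.23, 3.34 and 2.69 at midnight (7.93-fold lower, limma adjusted p = 4.76e-09). Its midday arrays spread more (SD 0.73) than its midnight arrays (SD 0.40). LCR69, also called PDF2.2, of the plant defensin family, stood at -0.49, 0.49, 0.22 and 0.30 at midday, against 3.05, 3.24, 3.10, 2.96 and 2.84 at midnight (7.52-fold lower). The other 9, none with a symbol, were AT1G04040 (-3.21), AT5G51570 (-3.16), AT5G62900 (-3.13), AT2G30930 (-3.10), AT2G25730 (-3.05), AT1G26665 (-2.89), AT5G03120 (-2.84), AT5G11070 (-2.84) and AT4G19390 (-2.81), with AT1G22890 next at -2.78. Without the midnight array of replicate 4 the 24 genes differed by 3.34 to 4.98 in the higher set and by -3.63 to -2.65 in the lower set.

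**Figure D3:**
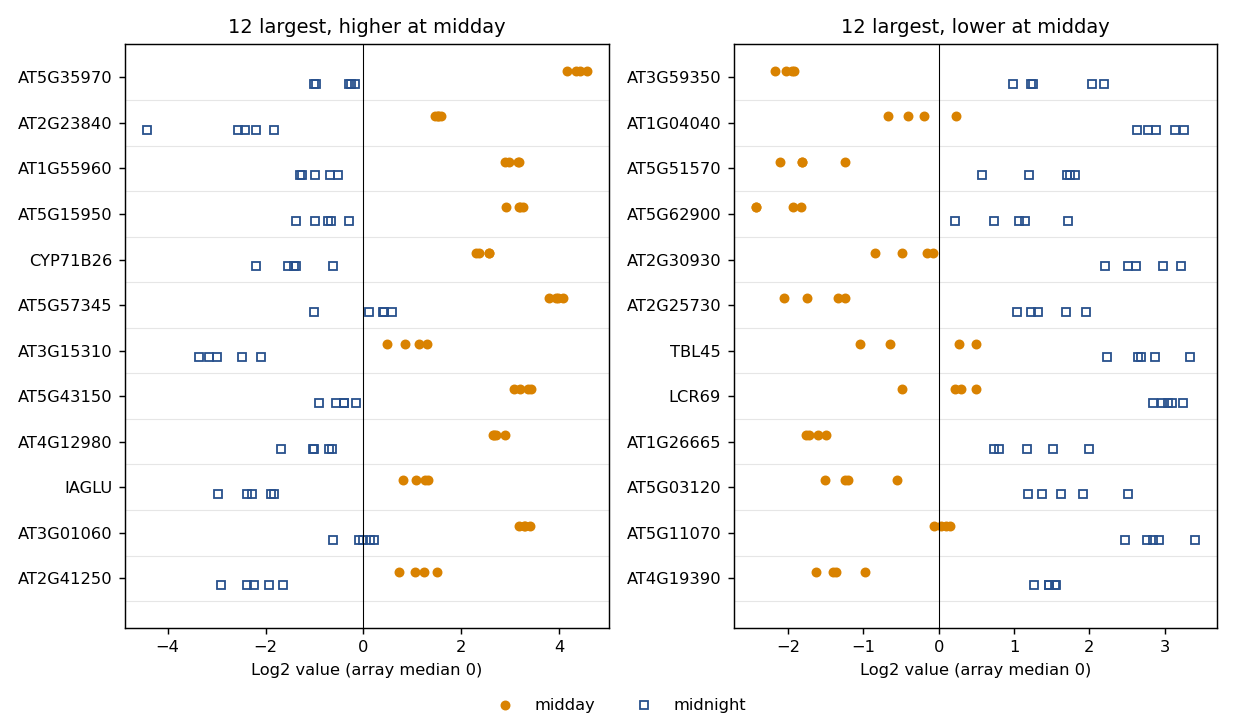
Log2 values of the 12 genes with the largest positive (left panel) and the 12 with the largest negative (right panel) midday minus midnight difference; each filled point is 1 of 4 midday arrays and each open square 1 of 5 midnight arrays, with 0 the median of the array. No gene overlaps between the times, since non-overlap was part of the rule that chose them, and the lowest midnight value of AT2G23840 (-4.42) is that of replicate 4.

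Of 8 measured nuclear genes of the photosynthetic light reactions, 6 were called higher and 0 lower at midday (75.0%, against 40.6% of all probe sets). All 8 had a difference above 0, and their median was 0.75, against -0.008 over all tested probe sets. The largest difference was that of LHCB4.2, a light-harvesting protein of photosystem II, at 6.09, 6.33, 6.20 and 6.17 at midday, against 3.45, 4.43, 3.35, 3.18 and 2.67 at midnight (6.89-fold, limma adjusted p = 4.48e-11). Its close relative LHCB4.1 was higher by 0.73 (SE 0.12), while LHCB4.3 had a difference of 0.04 (adjusted p = 0.913). At midnight LHCB4.1 lay between 5.41 and 5.61, and at midday between 6.17 and 6.48.

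The photosystem II subunits PSBY (1.21) and PSBW (0.78) and the photosystem I subunits PSAN (1.02) and PSAE-1 (0.47) were also called higher. PSAN stood at 5.62, 5.99, 5.70 and 5.91 at midday, against 4.68, 4.61, 4.71, 5.18 and 4.74 at midnight. PSBW overlapped through a single array, the midnight array of replicate 4 at 5.85, while the others lay between 5.42 and 5.63 at midday and between 4.29 and 4.60 at midnight, and without it the difference was 1.05. The call of PSAE-1 ended without midday replicate 2 (adjusted p = 0.0555). ATPC1, the gamma subunit of the chloroplast ATP synthase, had a difference of 0.24 (adjusted p = 0.15).

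Of 68 measured genes of the plastid genome, 15 were called higher and 0 lower (22.1%, below the 40.6% of all probe sets), with a median difference of 0.42. This count depended on the array that stood apart. Without the midnight array of replicate 4, 30 of the 68 were higher and 0 lower, and the median was 0.63. That share of 44.1% is near the 42.4% of all probe sets called in the same fit (20.9% higher). Left out singly, each of the other 8 arrays gave fewer than 30, with 10 the lowest count. By complex, 8 of 20 photosystem genes, 5 of 15 ribosomal protein genes, 1 of 9 genes of the NDH complex, 1 of 6 ATP synthase genes, 0 of 6 cytochrome b6f genes and 0 of 4 RNA polymerase genes were called higher. Without that array the counts were 10, 10, 3, 2, 1 and 1. The ribosomal count was 2 without midnight replicate 5 or midday replicate 1 and 3 without midnight replicate 1, 2 or 3 or midday replicate 3. How well the 3' IVT Express amplification of these arrays captures transcripts of the plastid genome was not tested. The plastid values may therefore not be comparable with those of nuclear genes.

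The largest plastid differences were those of psbD, the D2 protein of photosystem II, and atpI, an ATP synthase subunit. psbD stood at 4.55, 2.71, 3.07 and 2.78 at midday, against 1.23, 0.47, 2.98, 1.25 and 1.93 at midnight (log2 difference 1.71, SE 0.46, limma adjusted p = 0.00379), and its groups overlapped. atpI stood at 1.74, 0.99, 2.05 and 0.61 at midday, against 0.06, -1.15, -0.03, -0.09 and -0.28 at midnight, without overlap (1.65, SE 0.38). The photosystem core genes psaB (-0.08, adjusted p = 0.737) and psbA (-0.49, adjusted p = 0.174) and the large Rubisco subunit gene rbcL (-0.14, adjusted p = 0.621) did not pass. For psbA the midnight array of replicate 4 read 5.72, against 3.68 to 4.56 on the other midnight arrays. That array also had the widest 3' to 5' gap of the plant controls, and the part of that gap in the plastid values was not tested.

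In the Calvin-Benson cycle 2 of 4 measured genes were called higher (50.0%, against 40.6% of all probe sets), PRK (phosphoribulokinase) and RCA, both by 0.39 with overlapping groups. The call of PRK held when midnight replicate 3 or 4 was left out and ended without any 1 of the other 7 arrays, and that of RCA ended without midnight replicate 1, 3 or 5 or midday replicate 2 or 4. SBPASE, the sedoheptulose bisphosphatase, also had a difference of 0.39 and did not pass (adjusted p = 0.128); without the midnight array of replicate 4 it was 0.63 and passed (adjusted p = 0.00398). Of 5 photorespiration genes 1 was called higher (20.0%), HPR, the peroxisomal hydroxypyruvate reductase, at 5.88, 6.08, 5.87 and 5.89 at midday, against 5.06, 5.22, 5.3, 5.98 and 5.42 at midnight (0.53, SE 0.17).

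Of 5 measured starch genes 2 were called higher and 2 lower (80.0%, against 40.6% of all probe sets). APL3, a subunit of the ADP-glucose pyrophosphorylase that makes the precursor of starch, was 3.08-fold higher at midday, and SBE2.2, a starch branching enzyme, was higher by 0.75 (SE 0.19). APL3 stood at 0.34, 0.26, 0.88 and 0.78 at midday, against -1.05, -1.54, -0.53, -0.94 and -1.24 at midnight (limma adjusted p = 2.16e-06). On the side of breakdown, PWD (AT5G26570), which phosphorylates starch granules, was 4.85-fold lower and DPE1, which processes the maltotriose released from starch, 2.22-fold lower. PWD stood at 0.20, 0.34, 0.35 and 0.49 at midday, against 2.2, 2.46, 3.14, 2.96 and 2.35 at midnight (limma adjusted p = 1.10e-10), and DPE1 at -0.13, -0.07, 0.15 and -0.06 at midday, against 0.70, 1.03, 1.04, 1.89 and 0.97 at midnight. Neither overlapped between the times. The fifth measured gene, the alpha-amylase AMY1, had a difference of -0.42 (adjusted p = 0.471).

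Of 9 measured genes listed under sucrose synthesis and sugar transport, 2 were called higher and 5 lower (77.8%, against 40.6% of all probe sets). The list also holds MCCA, an enzyme of branched-chain amino acid breakdown that does not belong under its name and did not pass (0.15), so no median is given. Without midnight replicate 1, midday replicate 1 or midday replicate 2, 3 were lower in place of 5. Among the 5 was AT1G62660 (-0.81), whose call held only without midnight replicate 3 or 5 among the fits that left out 1 array. TMT1, which loads sugars into the vacuole, stood at -0.46, -0.30, -0.15 and -0.05 at midday, against 2.34, 2.42, 2.15, 1.79 and 2.37 at midnight (5.48-fold lower, limma adjusted p = 3.31e-13). Its relative TMT2 stood at -0.33, -0.33, -0.31 and -0.35 at midday, against -1.74, -1.20, -0.85, -1.90 and -1.74 at midnight (1.16, SE 0.22), so the paralogs differed in opposite directions.

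In the SWEET family of sugar transporters 2 of 6 measured genes of the symbol were called higher and 2 lower (66.7%, against 40.6% of all probe sets). SWEET11, which exports sucrose from leaf cells, was 2.72-fold lower, at 2.87, 2.89, 2.46 and 3.10 at midday, against 4.60, 4.2, 4.23, 3.77 and 4.57 at midnight. SWEET17, a fructose transporter of the vacuole, was higher by 1.59 (SE 0.30), at 1.89, 2.49, 2.53 and 2.46 at midday, against 1.33, 1.51, -0.10, 0.09 and 0.92 at midnight. SWEET13 was higher by 1.12 (SE 0.39) and SWEET4 lower by a log2 difference of -0.88 (SE 0.34); the SWEET13 call ended without midday replicate 4 (adjusted p = 0.108), and the SWEET4 call without midday replicate 1 or 2 or midnight replicate 1 or 3. F2KP, which makes and degrades the regulator fructose 2,6-bisphosphate, had a difference of -0.70 (SE 0.17), and the sucrose-phosphate synthase ATSPS4F one of -0.65 that did not pass (adjusted p = 0.0571) although its groups did not overlap.

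Of 18 measured genes listed under the TCA cycle and the pyruvate dehydrogenase, 12 were called lower and 0 higher at midday (66.7%, against 40.6% of all probe sets, 20.7% lower). Without the midnight array of replicate 4 there were 11 and 0, and without midnight replicate 1 there were 11 lower and 1 higher. The count of lower genes was 10 without midday replicate 1 or 3 and fell to 9, its lowest, without midday replicate 4. In all, 16 had a difference below 0, and the median was -0.41. The largest difference was that of cICDH, the cytosolic isocitrate dehydrogenase, at 3.79, 3.96, 3.75 and 3.82 at midday, against 4.90, 5.65, 5.07, 6.15 and 5.35 at midnight (3.02-fold lower, limma adjusted p = 1.34e-08). Being cytosolic, cICDH lies outside the mitochondrial cycle, although the counts above include it. IDH-V, a subunit of the mitochondrial isocitrate dehydrogenase, had an even gap, with 1.69, 1.67, 1.89 and 1.74 at midday, against 2.86, 2.93, 2.88, 2.84 and 2.90 at midnight (2.2-fold lower). IDH-VI, another subunit, was lower by a log2 difference of -0.91 (SE 0.20).

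Other called members were AT5G08300 (-1.11), AT4G26910 (-0.95), AT5G65750 (-0.83), AT3G55410 (-0.54), AT5G23250 (-0.38) and AT3G13930 (-0.37), listed by locus code, and SDH2-1, the iron-sulfur subunit of succinate dehydrogenase (-0.55), LTA3, an acetyltransferase of the pyruvate dehydrogenase (-0.44), and MAB1, its E1 beta subunit (-0.31). The calls of AT5G23250, AT3G13930 and MAB1 were the weakest. That of AT3G13930 ended without midnight replicate 4 (-0.20) or midday replicate 1, 3 or 4, that of AT5G23250 without midnight replicate 1, 3 or 5 or midday replicate 1, 2 or 4, and that of MAB1 without midday replicate 3 or 4. SDH2-2 (-0.26) and the flavoprotein subunit SDH1-1 (0.29) did not pass (adjusted p = 0.338 and 0.102).

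Of 19 measured genes of mitochondrial electron transport 4 were called higher and 2 lower (31.6%, against 40.6% over all probe sets), with a median of 0.25. There were 3 and 2 without the midnight array of replicate 4, and the median was then 0.07. Both directions occurred within a class: of the cytochrome c genes, CYTC-2 was higher by 1.13 (SE 0.20) and CYTC-1 lower by a log2 difference of -0.67 (SE 0.15), and of the alternative NAD(P)H dehydrogenases, NDC1 was higher by 0.71 (SE 0.16) and NDB1 lower by a difference of -0.73 (SE 0.17). CYTC-2 stood at 1.44, 1.75, 1.71 and 1.63 at midday, against 0.89, 0.74, 0.23, -0.09 and 0.75 at midnight. NDB2 had a difference of 0.35 (adjusted p = 0.368). The other genes called higher were AT5G47030, whose midnight array of replicate 4 read 0.03 against 2.44 to 2.80 on the other midnight arrays, and AT3G27240 (0.51). Without that array AT5G47030 differed by 0.41 in place of 0.92, and AT3G27240 did not pass (adjusted p = 0.0752). The call of AT5G47030 also ended without midday replicate 3 (adjusted p = 0.0539), and that of AT3G27240 without midday replicate 4 (adjusted p = 0.0675).

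Of 10 measured antioxidant genes 4 were called higher and 1 lower, a share of 50.0% that is near the 40.6% of all probe sets. There were 6 and 1 without the midnight array of replicate 4. Both glutathione reductases were higher: GR1, the cytosolic form, at 3.02, 3.01, 3.00 and 3.12 at midday, against 1.12, 1.69, 1.59, 2.05 and 1.46 at midnight (2.75-fold), and GR, the form of chloroplasts and mitochondria, by 1.48 (SE 0.19). TRXF2, the chloroplast thioredoxin f that carries electrons from the light reactions to Calvin-Benson enzymes, stood at 3.31, 3.34, 3.16 and 3.24 at midday, against 1.80, 1.69, 1.88, 1.08 and 1.79 at midnight (3.06-fold). The thioredoxin m gene ATHM2 was lower by a difference of -0.35 (SE 0.13), a call that ended without midday replicate 1 or 4 or midnight replicate 1, 2 or 5. The fourth higher gene, AT3G11630, differed by 0.37, and its call ended without midday replicate 2 or 3 or midnight replicate 1, 2 or 5.

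In chlorophyll synthesis 4 of 9 measured genes were called higher and 1 lower (55.6%, against 40.6% of all probe sets), and 3 were lower in place of 1 without midnight replicate 2. Higher were both uroporphyrinogen decarboxylases, HEME1 (1.23, SE 0.22) and HEME2 (1.00, SE 0.16), with AT1G74470 (1.02, SE 0.18) and the magnesium protoporphyrin methyltransferase CHLM (0.75, SE 0.18). HEME2 stood at 3.05, 2.86, 3.19 and 2.91 at midday, against 2.15, 1.63, 2.1, 2.24 and 1.88 at midnight. HEMA2, an isoform of the glutamyl-tRNA reductase that starts the pathway, went the other way, at -1.6, -2.16, -2.72 and -1.61 at midday, against -0.60, -0.62, -0.59, -0.68 and -0.47 at midnight (2.69-fold lower). The chelatase subunit CHLI2 (0.31) and the light-dependent reductase PORB (0.39) did not pass (adjusted p = 0.195 and 0.137). LYC, the lycopene cyclase of carotenoid synthesis, was higher by 0.85 (SE 0.17).

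**Figure D4:**
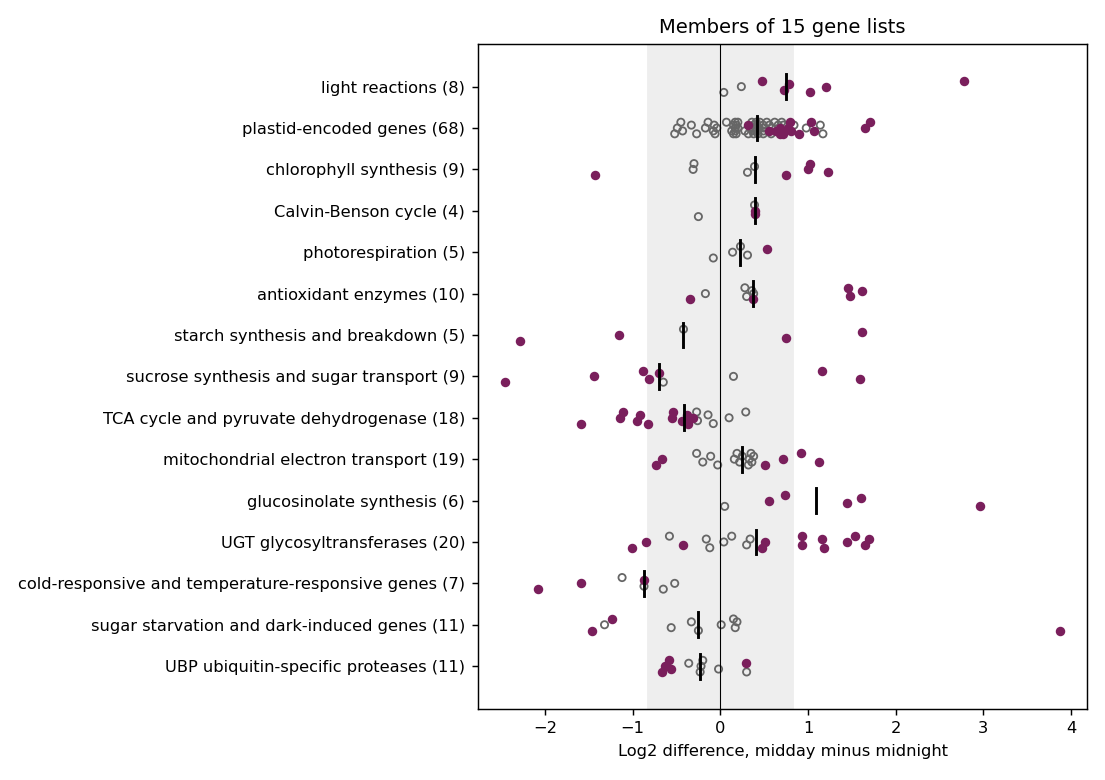
Log2 difference, midday minus midnight, of every measured member of the gene lists named on the vertical axis (number measured in parentheses); filled points were called, open points were not, and black bars are list medians. The grey band is the largest spike-in difference in either direction (0.83). Members of the TCA cycle list lie mostly left of 0 (median -0.41), those of the light reactions right of 0 (median 0.75).

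Glucosinolates are sulfur-rich defence compounds of the cabbage family. Of 6 measured genes of their synthesis and transport, 5 were called higher and 0 lower (83.3%, against 40.6% of all probe sets, 19.9% higher), with a median of 1.09. BCAT4, which starts the elongation of methionine towards aliphatic glucosinolates, stood at 4.24, 5.05, 4.21 and 5.07 at midday, against 2.21, 1.86, 1.65, 2.27 and 0.42 at midnight (7.77-fold, limma adjusted p = 1.56e-09). UGT74B1, the glucosyltransferase of the core pathway, was higher by 1.45 (SE 0.16), AT2G31790 by 1.6 (SE 0.18) and AOP1, of side-chain modification, by 0.74 (SE 0.22). The transporter GTR1 was higher by 0.56, a call that held without midnight replicate 1, 3 or 4 and ended without any 1 of the other 6 arrays, and GTR2 had a difference of 0.05 (adjusted p = 0.833). In sulfate assimilation the ATP sulfurylase genes parted: APS3 was higher by 1.26 (SE 0.23) and APS4 lower by a difference of -0.85 (SE 0.17). The sulfite reductase SIR had a difference of 0.30 (adjusted p = 0.171), and AT1G04770 was higher by 1.45 (SE 0.31).

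UGT genes encode glycosyltransferases that attach sugars to hormones and secondary metabolites. Of 20 measured under this symbol 10 were called higher and 3 lower (65.0%, against 40.6% of all probe sets), with a median of 0.41. UGT88A1 stood at 3.67, 3.90, 3.70 and 3.88 at midday, against 2.28, 2.42, 2.01, 1.95 and 1.80 at midnight (1.7, SE 0.12), and UGT72E1 was higher by 1.65 (SE 0.30). Both flavonol glycosyltransferases measured, UGT78D1 (1.16, SE 0.25) and UGT78D2 (0.48, SE 0.18), were called higher, the second only as long as midnight replicate 2, midday replicate 2 and midday replicate 4 were all kept. UGT71B1 (-1.01, SE 0.19) and UGT71C5 (-0.85, SE 0.16) were lower, as was UGT80B1 (-0.43), whose call ended without midnight replicate 3 or 4 or any 1 of the 4 midday arrays. Of 8 aldehyde dehydrogenases 3 were higher and 3 lower (75.0%): ALDH11A3, which makes NADPH from glyceraldehyde 3-phosphate in the cytosol, was higher by 1.43 (SE 0.19), and ALDH2C4 lower by a difference of -0.84 (SE 0.18). In the CYP71B subfamily 4 of 10 were higher and 1 lower (50.0%); after CYP71B26 came CYP71B24, at 0.81, 0.48, 1.11 and 0.66 at midday, against -0.99, -1.0, -0.82, 0.33 and -1.16 at midnight.

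Of 7 measured cold-responsive genes 3 were called lower and 0 higher at midday, a share of 42.9% that is near the 40.6% of all probe sets. There were 2 and 0 without the midnight array of replicate 4, and 5 and 0 without that of replicate 3. All 7 had a difference below 0 (median -0.87). COR15B, a protein that protects chloroplast membranes in the cold, stood at 0.22, 1.92, 1.51 and 1.53 at midday, against 3.54, 2.55, 2.92, 4.3 and 3.56 at midnight (4.23-fold lower, limma adjusted p = 8.21e-06). The zinc finger regulator STZ had a difference of -1.59 (SE 0.51) and AT4G30650 one of -0.87, a call that ended without midday replicate 1 or 4 or midnight replicate 1 or 4. COR47 (-1.12), LTI30 (-0.87), COR15A (-0.65) and AT2G23120 (-0.52) did not pass (adjusted p = 0.0845, 0.431, 0.113 and 0.0922). Light and temperature changed together with time here and cannot be told apart.

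Among heat shock and folding genes, AT3G09440 stood at 5.02, 4.28, 3.40 and 4.40 at midday, against 2.87, 1.89, 0.64, 0.58 and 0.88 at midnight (7.49-fold, limma adjusted p = 3.90e-05). DER1, of protein quality control in the endoplasmic reticulum, was called higher by 0.68, and that call ended without midnight replicate 4 (0.41) or midday replicate 1, 2 or 3. The other 3 of the 5 measured did not pass, so the share called was 40.0%, near the 40.6% of all probe sets.

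Of 11 genes listed as induced by darkness or sugar starvation, 1 was called higher and 2 lower (27.3%, against 40.6% of all probe sets), the higher one being CYP71B26, and 3 and 2 without the midnight array of replicate 4. AT4G33960 (-1.46, SE 0.24) and AT3G15450 (-1.24, SE 0.28) were lower at midday. IVD, ETFQO, MCCA and MCCB, which act in the breakdown of branched-chain amino acids, had differences of 0.17, 0.19, 0.15 and 0.01 and did not pass with all arrays; ETFQO (0.33) and MCCA (0.29) passed without the midnight array of replicate 4. Among ATG8 and ATG3 genes, which encode core proteins of autophagy, ATG8D was 5.27-fold lower, at -1.69, -1.12, -1.04 and -1.07 at midday, against 1.18, 1.34, 0.39, 1.55 and 1.39 at midnight. The other 6 measured ATG8 genes lay between -0.62 and 0.14 and did not pass with all arrays, while 4 genes of the family were called lower without midnight replicate 3, and ATG3 was called higher by 0.49, a call that ended without midnight replicate 4 (0.33) or midday replicate 2. In the nitrogen list AT1G25550 was 4.84-fold lower, with 0.07, 0.47, 0.26 and 0.14 at midday, against 2.46, 2.38, 2.17, 2.96 and 2.57 at midnight, and AT1G68670 had a difference of 0.13 (adjusted p = 0.621).

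Of 13 serine carboxypeptidase-like (SCPL) genes 2 were higher and 4 lower (46.2%, near the 40.6% of all probe sets), and 4 and 4 without the midnight array of replicate 4 (61.5%, against 42.4%). The largest difference was that of SCPL49 at 0.37, 0.13, 0.39 and 0.42 at midday, against 2.41, 2.18, 3.02, 2.96 and 2.56 at midnight (log2 difference -2.3, SE 0.17), with SCPL34 at -1.57 and SCPL45 at -1.08. Of 11 ubiquitin-specific proteases (UBP) 1 was higher and 4 lower (45.5%), with sizes up to 0.67. The higher one, UBP16, lost its call without midnight replicate 1 or 3 or midday replicate 1, 2 or 4. Among VPS genes of endosomal sorting 0 were higher and 2 of 8 lower (25.0%), and 4 were lower without midnight replicate 3.

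Of 8 measured genes of leaf growth and the cell wall 3 were called higher and 2 lower (62.5%, against 40.6% of all probe sets). The 3 higher ones were expansins, which loosen cell walls. EXPB3 stood at 0.75, 0.19, 0.46 and 0.42 at midday, against -2.12, -2.68, -1.79, -3.02 and -2.11 at midnight (6.95-fold, limma adjusted p = 2.86e-10), and EXPA8 was higher by 1.46 (SE 0.32). EXPA4 stood at 1.03, 1.38, 1.17 and 0.87 at midday, against 0.25, -0.09, 0.57, -6.73 and -0.21 at midnight. Its difference of 2.36 rested on the midnight array of replicate 4 and was 0.98 without it. The tubulin TUB1 was lower by a difference of -1.42 (SE 0.30), and so was TUB5 (-0.58), whose call held only without midnight replicate 1 or 3 or midday replicate 1 among the fits that left out 1 array. EXPA9 (0.32), TUB6 (0.24) and TUA6 (-0.18) did not pass. Of 13 TBL genes 2 were higher and 3 lower (38.5%, near the 40.6% of all probe sets). TBL26 stood at 2.43, 2.98, 3.44 and 2.96 at midday, against 0.54, -0.58, 1.00, 0.52 and -0.15 at midnight (2.69, SE 0.50).

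Of the genes listed under guard cells and epidermis, STOMAGEN (a peptide of stomatal formation) and FMA (a regulator of guard cell fate) were named. They had differences of -1.16 (SE 0.39) and -0.61 (SE 0.21) and were called lower. STOMAGEN is not taken here as a marker of those cells. The call of STOMAGEN ended without the midnight array of replicate 4 (-0.76, adjusted p = 0.0775), and that of FMA without midday replicate 2 or midnight replicate 3. Their part in the other results was not tested. The clock genes could hardly be seen in this annotation: of 28 listed, 1 was named, AT5G52660, at -0.68, -0.45, -0.89 and -0.72 at midday, against -1.08, -0.60, -1.14, -2.11 and -1.51 at midnight. Its call (0.60) ended without midnight replicate 4 (0.39, adjusted p = 0.0777) or midday replicate 2. Of 34 genes of light signalling, HYH, a bZIP factor related to HY5, was the 1 named, and it was higher by 0.79 (SE 0.26), a call that ended without midday replicate 3 or midnight replicate 3 or 5.

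The day and night difference was largely shared with plants grown under the other regimes, which were measured on separate arrays. At ambient CO2 and limiting nitrogen 4533 probe sets were called (35.5%), at elevated CO2 and ample nitrogen 4259 (33.3%), and at elevated CO2 and limiting nitrogen 4481 (35.1%). Of the 5185 called here, 68.9% were called the same way at ambient CO2 and limiting nitrogen, 67.2% at elevated CO2 and ample nitrogen and 65.6% at elevated CO2 and limiting nitrogen, which is 78.8%, 81.9% and 75.9% of those called there. The opposite call was made for 3, 0 and 4 probe sets. The direction was the same for 97.8%, 98.6% and 96.9% of the probe sets called here.

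The 24 genes with the largest differences were all called in each of the other 3 conditions, in the same direction. The 12 higher genes differed by 3.14 to 4.41 at ambient CO2 and limiting nitrogen, by 2.74 to 4.48 at elevated CO2 and ample nitrogen and by 2.68 to 4.52 at elevated CO2 and limiting nitrogen. The 12 lower genes differed by -3.92 to -2.0, -3.49 to -1.72 and -3.94 to -1.34 in the same conditions. AT1G04040 was among those that varied, with -3.21 here and -2.02, -1.72 and -1.52 in the others, while AT5G51570 kept near -3.16, with -3.03, -2.92 and -2.90. Since the 24 were picked for their size here, smaller values elsewhere are partly a matter of that choice.

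**Figure D5:**
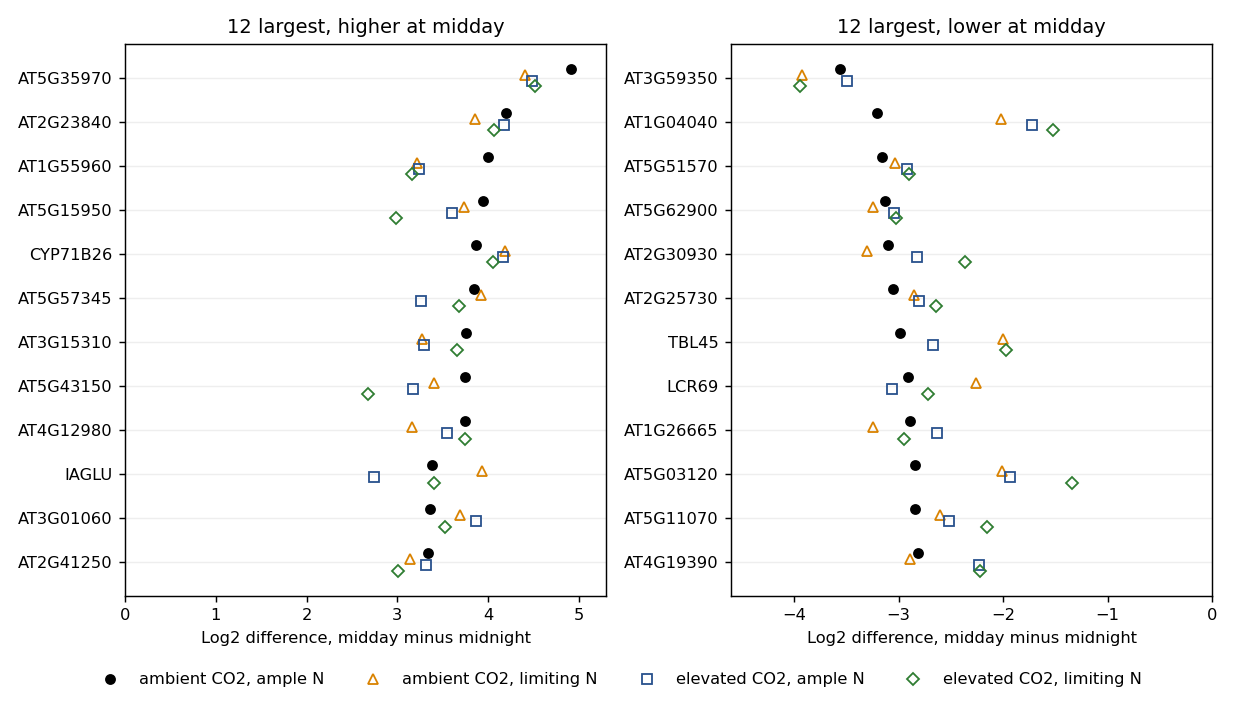
Log2 difference, midday minus midnight, of the same 24 genes in 4 growth conditions (filled black circles, ambient CO2 and ample nitrogen; open symbols, the other 3 conditions). The 12 genes of the left panel lie at 2.68 or above and the 12 of the right panel at -1.34 or below in every condition.

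A direct test of whether nitrogen supply altered the difference (the difference at ample minus that at limiting nitrogen, ambient CO2) called 1 of 12772 probe sets (0.00783%), with 688 at an unadjusted p under 0.05 (5.39%). The probe set has no single-gene name in the annotation used and was picked out after its values were seen. At ample nitrogen it averaged -0.94 ± 0.29 at midday (SD, n = 4) and -1.90 ± 0.26 at midnight (SD, n = 5), and at limiting nitrogen -1.64 ± 0.37 at midday and -1.05 ± 0.24 at midnight (SD, n = 4 each). The 2 differences were thus of opposite sign and lay 1.55 apart (SE 0.26, limma adjusted p = 0.0253), and the call ended in 12 of the 17 fits that left out 1 array, with adjusted p from 0.00225 to 0.132. The named genes with the smallest p did not pass: AT5G14120 (-1.25, SE 0.28), AT1G08280, also called GALT29A, a glycosyltransferase (-1.21, SE 0.26), and AT1G30960 (-1.12, SE 0.27), each with limma adjusted p = 0.31.

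The matching test for CO2 (the difference at ambient minus that at elevated CO2, ample nitrogen) called 0 probe sets with limma, 0 with array weights, and 420 at an unadjusted p under 0.05 (3.29%). The named genes with the smallest p were AT5G03460 (-0.84, SE 0.23), AT5G61520 (-0.93, SE 0.26) and AT5G47790 (-0.98, SE 0.28), each with limma adjusted p = 0.999. AT5G61520 stood at -0.61, -0.94, -0.85 and -1.15 at midday, against 1.00, 1.62, 0.55, 0.57 and 1.00 at midnight, so its own difference here (-1.83, SE 0.18) was well past the threshold. The median SE of both tests was 0.27, and the number of arrays limits what these tests can resolve.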

How the data were processed

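RNA from leaves was hybridised to Affymetrix arrays after 3' IVT Express amplification and biotin labelling, per the labels' protocols. The deposited values are log2 expression per probe set, and each array's median is 0 in the authors' table; how probes were summarised, and with which software, is not given in the sources used here. Of 12826 probe sets, 54 are Affymetrix controls and 12772 were tested. The 33 arrays were fitted with 8 group means in limma 3.58.1 (lmFit and eBayes, R 4.3.3), with Benjamini-Hochberg adjustment over 12772 probe sets and a threshold of 0.05. Spike-ins were tested with two-sided exact permutation tests over all splits of the arrays (written in Python 3.11.15), and the fit was tested on simulated data. No further normalization was applied, so values stay relative to the array median. The platform table names 1 gene for 6898 probe sets and several for 272, and 5602 are not listed; names were updated through RefSeq (TAIR10.1), and 21 identifiers did not match. Of several probe sets of 1 of 45 genes, the one with the highest mean was used.

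Genes named are the 12 largest differences each way among called, single-gene probe sets without overlap, up to 4 called members per list with the largest difference, other members needed for their role, the 3 smallest p of each interaction where no single-gene probe set was called, and the spike-in with the largest difference each way. Some further called members outside this rule are given so that counts can be followed, and were chosen after their values were seen. The members and lists were chosen with earlier results of these data known. Deviations of midday and midnight arrays of the same replicate number from their group means had correlations of -0.17, 0.19, -0.07 and 0.04. The labels do not say whether the numbers pair the samples, and so few correlations cannot settle it. The main fit did not pair them. Alternatives covered normalization, filters, array weights, covariates and single arrays left out.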

Additional observations from a re-analysis of the deposited data

Results flagged for a closer look

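A single array lay far from the others of its group in 24 of 270 group-wise checks by Dixon's test, which flags about 1 in 20 groups by chance. The midnight array of replicate 4 accounted for 10 of them. It read -4.42 for AT2G23840, 5.18 for PSAN, 5.85 for PSBW, 0.03 for AT5G47030, 1.08 for TRXF2, -6.73 for EXPA4, 5.17 for rps19, -2.54 for UGT84A3 and 0.33 for CYP71B24, and 4.41 for the 3' to 5' difference of the plant controls. Midday replicate 1 accounted for 5, with 1.89 for SWEET17, -0.68 for AOP1, -1.69 for ATG8D, 1.29 for UGT72E1 and -0.41 for the mean of the 5' poly(A) spike-ins. Midday replicate 2 accounted for 4, with 6.08 for HPR, 0.13 for SCPL49, 1.15 for scpl46 and -2.45 for AT1G08280. The others were UBP24 at -0.13 on midday replicate 3, UGT78D1 at 1.3 on midday replicate 4, AT4G26910 at 2.11 on midnight replicate 1, and, on midnight replicate 2, UGT78D2 at -0.71 and atpI at -1.15.

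The probe set without a single-gene name that the nitrogen test called differed between nitrogen supplies by a test of the difference itself: the midday minus midnight difference at ample nitrogen exceeded that at limiting nitrogen by 1.55 (SE 0.26, limma adjusted p = 0.0253). Over the alternatives its adjusted p lay between 0.000612 and 1.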

How the results depend on the processing

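The count of 5185 called probe sets stayed between 3611 (adjusted p under 0.01) and 6006 (array weights) under the other adjusted p thresholds, normalizations, filters on dim probe sets, covariates and fits, with 3803 from only the 9 arrays compared. It lay between 4385 (without midday replicate 1) and 5414 (without midnight replicate 4) when single arrays were left out. A required difference of 1.5-fold left 1179. Adding the replicate block gave 4910. Centring on the spike-ins gave 4126, 42.6% of them higher against 49.1% with all arrays as deposited. The nitrogen test called 1 probe set, 0 with only the arrays compared, with spike-in centring, without the 30% dimmest probe sets, with a 1.5-fold minimum or with the 3' to 5' covariate (chosen after seeing the data), 7 with array weights, and 0 to 2 with single arrays left out; the cause was not tested. The CO2 test had 0 calls under every setting run. The spike-ins had 0 with all arrays, after centring on the spike-ins and with each of the 9 arrays left out, the settings run for them. Their exact p cannot fall below 0.0159 with all arrays, so an adjusted p under 0.05 needs many spike-ins at that floor. The 0 calls therefore do not show that the 2 sets of arrays were handled alike. Members called over the lists numbered 140, against 134 after quantile normalization, 117 after spike-in centring, 153 without midnight replicate 4 and 140 with the lowest-mean probe set of a gene, the settings run for them. Of 2730 values of 131 named genes under the settings run for them, 2508 kept their direction and call, 222 lost the call and 0 reversed, and 63 genes lost it somewhere. The 24 largest differences lost no call outside the 1.5-fold minimum. The number of arrays and dim signals limit small differences.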
